A study of Sus scrofa with 7 samples.

Results

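The genes described here are those of central carbon metabolism: the enzymes of glycolysis, of pyruvate use, of gluconeogenesis and of the tricarboxylic acid (TCA) cycle that are encoded in the nucleus, with the regulator HIF1A. They were chosen by symbol, 50 in all, and 45 of the 50 symbols have a row among the 29510 genes of the deposited tables. A symbol with several rows was read from the row with the most counts, which concerned PKLR and CS. ALDOA, PGAM1, PC, MDH1 and G6PC have no row under these symbols. The rows of TPI1 and LDHB held 0 counts in all 7 libraries, so 43 genes passed the filter on low counts and were tested.

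RNA-seq was performed on 3 lines of porcine extra-embryonic endoderm cells (pXEN cells), 2 lines of porcine naïve-like ESCs (nESCs) and 2 lines of porcine primed ESCs (pESCs), with 1 library per line. The pXEN lines came from the inner cell mass of parthenogenetic blastocysts and were at passages 26, 26 and 23. They grew on mouse embryonic fibroblasts in knockout DMEM with serum replacement, fetal bovine serum, LIF, CHIR99021, dimethindene maleate, minocycline and Y27632. The nESCs, at passages 21 and 22, were kept on mouse embryonic fibroblasts too, in serum replacement and N2B27 medium with FGF, LIF, PD0325901, CHIR99021, SB431542 and doxycycline, and the pESCs, both at passage 20, on STO cells in α-MEM with serum replacement, insulin-transferrin-selenium, activin A, bFGF, EGF and LIF. Medium and cell type changed together in every comparison, and feeder cells also in those with pESCs, so these cannot be told apart, and in bulk RNA neither can fewer cells of a kind and less RNA per cell. Each library held between 10408164 and 12995720 counts on genes, and 3 counts were taken as the floor of detection, for counting error only.

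The labels were checked against marker genes. The summed level of 9 extra-embryonic endoderm markers was 1689.8 to 1966 FPKM (fragments per kilobase of gene, scaled to library size) in the pXEN lines, 13.6 and 13.7 FPKM in the nESC lines and 86.8 and 88.7 FPKM in the pESC lines. All 8 of these markers that were tested were called higher in pXEN cells against each ESC type. Of the pluripotency markers, SOX2 was present in both ESC types, whereas NANOG, DPPA5 and TDGF1 were at most 0.148 FPKM in the nESC lines and POU5F1 was at most 0.284 FPKM in every library. Of the 8 tested pluripotency markers, 5 were higher and 3 lower in pXEN cells than in nESCs, with a median log2 fold change of 4.13, and 3 higher and 5 lower than in pESCs, with a median of −4.24, so against nESCs more of this list was higher than lower in pXEN cells. Of all genes tested, 28.3% were called higher and 26.2% lower than in nESCs, and 23.9% higher and 24.4% lower than in pESCs. The library of pXEN line 2 stood apart: its summed level of 8 fibroblast markers was 251 FPKM, against 17.5 and 20.6 FPKM in lines 1 and 3, and it held 38 counts on chromosome Y, against 1 and 3. Several counts and single values are also given without this library, whereas most values of the further lists come from all libraries.

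Glycolysis splits glucose into pyruvate in the cytosol, and pyruvate is then either reduced to lactate or carried into mitochondria and oxidised by the pyruvate dehydrogenase complex to feed the TCA cycle. Several steps are served by isoenzymes, proteins from different genes that catalyse the same reaction with different regulation or tissue preference. Naïve and primed pluripotent cells of the mouse are known to differ in their reliance on mitochondrial respiration.

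pXEN cells held less HK1, HK2, PDHA1 and MDH2 transcript than either ESC type and more ALDOC, PFKFB4 and IDH1, whereas pESCs stood apart by high ENO2, FBP1 and PCK2. Calls were taken at an adjusted p below 0.05 in edgeR's quasi-likelihood test with TMM scaling and all lines, and a gene described as not called was so under these settings. Against nESCs, 29 of the 43 tested genes were called, 14 higher and 15 lower in pXEN cells, which is 67.4%. Of all 17447 genes tested, 54.5% were called in this comparison, 28.3% higher and 26.2% lower. Against pESCs, 25 genes were called, 9 higher and 16 lower in pXEN cells, which is 58.1% beside 48.3% of all genes, 23.9% higher and 24.4% lower. pESCs against nESCs gave 19 calls, 10 higher and 9 lower, which is 44.2% beside 32.2% of all genes, 19% higher and 13.3% lower. The median log2 fold change of the 43 genes was −0.19 for pXEN cells against nESCs, −0.26 against pESCs and −0.04 for pESCs against nESCs, and that of all tested genes was within 0.0120 of 0 in each comparison. Of the 19 tested glycolysis genes, 6 were higher and 7 lower in pXEN cells than in nESCs, and 6 higher and 5 lower than in pESCs. Of the 8 genes of pyruvate use, 3 were higher and 3 lower than in nESCs, and 4 were lower than in pESCs. When pXEN line 2 was left out, 8 of the glycolysis genes were higher and 7 lower than in nESCs, 6 were higher and 6 lower than in pESCs, and of the genes of pyruvate use 3 were higher and 3 lower than in nESCs and 5 were lower than in pESCs.

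These calls did not all withstand a change in the libraries used. Without the library of pXEN line 2, 36 genes were called against nESCs, 16 higher and 20 lower, beside 10359 of the 17264 genes tested in that fit, and 28 against pESCs, 9 higher and 19 lower, beside 55.4% of all genes. Without pESC line 2, 16 were called against pESCs, beside 30.2% of all genes. Between the ESC types 9 to 11 were called with any 1 of the 4 ESC lines left out, beside 16.2% to 20.2% of all genes, and 15 without pXEN line 1, beside 30.1%. The counts of all genes thus moved the same way as those of the 43. A call was made with the settings used here and in each alternative that tested the gene for 23 of the 29 genes against nESCs, for 16 of the 25 against pESCs and for 8 of the 19 between the ESC types. The matching count over all genes is not given here, so whether these genes were steadier than others cannot be read from it. The plot of fold changes shows which genes were called.

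**Figure D1:**
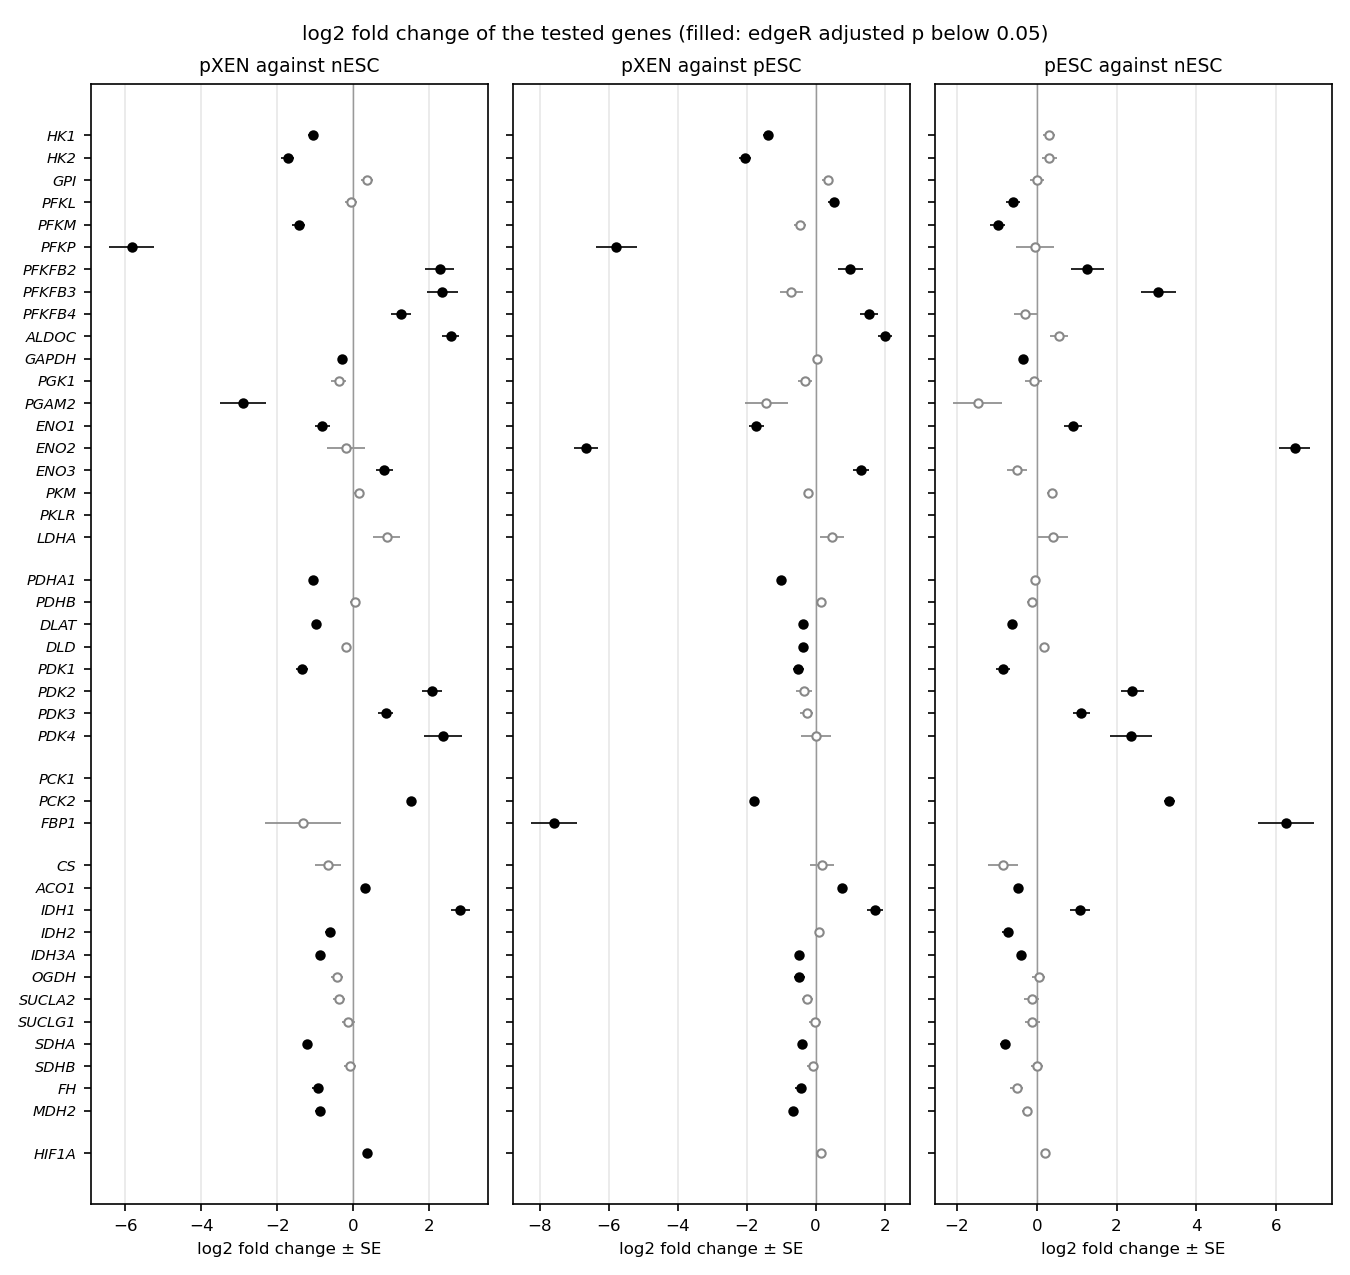
log2 fold change (x axis, log scale) of each tested gene (y axis, by pathway) between cell types, with edgeR's standard error as bars. Filled points have an adjusted p below 0.05. Genes with at most 3 counts in all in one of the groups (PCK1, and PKLR in the comparisons with primed and nESCs) have no point. ENO2 at 6.47 and FBP1 at 6.25 lie farthest to the right between the ESC types, and HK1 and HK2 lie left of 0 in both comparisons of pXEN cells.

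The hexokinases, which trap glucose in the cell by phosphorylating it, were lower in pXEN cells than in either ESC type. HK1, which the files place at 78486911 to 78521299 of chromosome 14 (Sscrofa10.2, as for all positions given), had 45.1, 41.9 and 58.7 FPKM in pXEN lines 1, 2 and 3, 98.9 and 102 FPKM in the nESC lines and 128 and 125 FPKM in the pESC lines. HK2, the inducible hexokinase that binds to mitochondria, had 6.97, 6.58 and 9.94 FPKM, 25.1 and 26.5 FPKM, and 31.8 and 32.9 FPKM in the same order. For both genes every pXEN library lay below every ESC library. HK1 was 2.08-fold lower than in nESCs (log2 −1.06 ± 0.14 SE, adjusted p = 0.000463) and 2.58-fold lower than in pESCs (adjusted p = 0.000162). HK2 was 3.31-fold lower than in nESCs (log2 −1.73 ± 0.17, adjusted p = 9.69e-05) and 4.11-fold lower than in pESCs (adjusted p = 6.21e-05). Neither gene was called between the ESC types, save in the fit of these 2 groups alone, where both were higher in pESCs (log2 0.32 for each, adjusted p = 0.0140 for HK1 and 0.0260 for HK2).

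Summed over HK1 and HK2, hexokinase was at 56.4 ± 10.8 FPKM in pXEN cells (SD, n = 3), 126 ± 3.45 FPKM in nESCs (n = 2) and 159 ± 1.44 FPKM in pESCs (n = 2). HK2 made up 13.8% ± 0.587 of this sum in pXEN cells and 20.4% in both ESC types. A further row described as HK1 but without the symbol had the same calls, with 18.7 to 25.03 FPKM in the pXEN lines and 39.1 to 67.3 FPKM in the ESC lines. HKDC1, a hexokinase-like gene that was not among the 50 and was picked here after its values were seen, went the other way. It had 11.3, 13.1 and 8.87 FPKM in the pXEN lines, 0.134 and 0.0598 FPKM in the nESC lines and 0.941 and 0.553 FPKM in the pESC lines. It was called higher in pXEN cells against both (log2 6.79, adjusted p = 7.87e-06, and 3.90, adjusted p = 4.98e-05), and its FPKM exceeded that of HK2 in pXEN lines 1 and 2.

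Phosphofructokinase, which commits sugar to glycolysis, was made from a narrower set of genes in pXEN cells. PFKP, the platelet type, on chromosome 10 from 73581212 to 73608329, had 0, 0.238 and 0.149 FPKM in the pXEN lines, which are 0, 5 and 3 counts. The nESC lines had 10.24 and 5.57 FPKM of PFKP and the pESC lines 8.85 and 6.62 FPKM. PFKP was therefore close to the floor in every pXEN library and well above it in every ESC library, 56.6-fold lower in pXEN cells than in nESCs (adjusted p = 0.000108) and 54.9-fold lower than in pESCs (adjusted p = 0.000159). These folds rest on few counts: with 1 line left out the log2 value ranged from −6.56, without pXEN line 2, to −5.31 against nESCs and from −6.51 to −5.26 against pESCs, and both calls stood. On log2(FPKM + 1) the log2 difference shrank to −2.93 and −2.94, and the calls stood there too.

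PFKM, the muscle type, had 25.3, 22.3 and 31.2 FPKM in the pXEN lines, 61.2 and 79.8 FPKM in the nESC lines and 37.1 and 35.3 FPKM in the pESC lines. It was 2.70-fold lower in pXEN cells than in nESCs (log2 −1.43 ± 0.17, adjusted p = 0.000217), and pESCs were lower than nESCs too (log2 −0.98, adjusted p = 0.00582, and 0.0546 without pESC line 2). Against pESCs the log2 fold change of −0.46 missed the threshold (adjusted p = 0.0548), and it was called without pXEN line 3 (log2 −0.59, adjusted p = 0.0225) or nESC line 1 (adjusted p = 0.0484) and under 4 of 6 settings that kept every line. PFKL, the liver type, had 109, 88.5 and 136 FPKM in the pXEN lines, 116 and 115 FPKM in the nESC lines and 77.7 and 77.3 FPKM in the pESC lines. It was higher in pXEN cells than in pESCs (log2 0.53 ± 0.17, adjusted p = 0.0306), and this call was lost with 6 of the 7 lines left out in turn, with log2 values of 0.36 to 0.54 in those fits. Between the ESC types PFKL was lower in pESCs (log2 −0.59 ± 0.18, adjusted p = 0.0384), a call lost with 5 of the 7 lines left out, at adjusted p up to 0.167. PFKL lies on chromosome 13, where the median log2 fold change of 1129 tested genes was 0.46 against nESCs and 0.40 against pESCs, and where pXEN lines 1 and 3 exceeded line 2 by a median log2 of 0.37 and 0.38. The part of this in the value of PFKL was not tested.

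By share of the summed FPKM of the 3 genes, PFKL took 80.7% ± 0.855 in pXEN cells, 59.6% ± 3.10 in nESCs and 63.8% ± 1.37 in pESCs. PFKM took 19.2%, 36.3% and 29.8%, and PFKP 0.101%, 4.13% and 6.35%. The shares of the pXEN lines did not overlap those of the ESC lines for any of the 3 genes.

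The PFKFB enzymes make and break fructose 2,6-bisphosphate, the strongest activator of phosphofructokinase, and as a group they were higher in pXEN cells than in nESCs. Their summed level was 23.3 ± 4.06 FPKM in pXEN cells, 5.94 ± 1.51 FPKM in nESCs and 18.6 ± 0.770 FPKM in pESCs. PFKFB2, the heart type, had 12.1, 13.5 and 5.98 FPKM in the pXEN lines, 1.86 and 2.46 FPKM in the nESC lines and 5.21 and 5.34 FPKM in the pESC lines. PFKFB3, the type with the strongest kinase activity, had 6.25, 7.44 and 7.15 FPKM, 0.660 and 2.06 FPKM, and 12.3 and 10.4 FPKM in the same order. PFKFB4 had 6.23, 5.63 and 5.64 FPKM in the pXEN lines, 2.35 and 2.48 FPKM in the nESC lines and 1.68 and 2.32 FPKM in the pESC lines. No pXEN library overlapped a nESC library for any of the 3.

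Against nESCs, PFKFB2 was 4.85-fold (adjusted p = 0.00159), PFKFB3 5.10-fold (adjusted p = 0.00177) and PFKFB4 2.40-fold higher in pXEN cells (adjusted p = 0.00405). The pESCs shared the higher PFKFB3 (log2 3.05 ± 0.43 over nESCs, adjusted p = 0.00151) and were above the pXEN lines in each library (log2 −0.70 for pXEN cells, adjusted p = 0.129). In the fit of pXEN cells and pESCs alone PFKFB3 was called lower in pXEN cells (log2 −0.72, adjusted p = 0.0129). Without nESC line 1 or 2 the log2 value was −0.71 or −0.70. The nESC lines held 16 and 48 counts of PFKFB3. Its log2 value was 1.74 without nESC line 1 and 3.38 without nESC line 2 for pXEN cells against nESCs, and 2.44 and 4.08 for pESCs against nESCs, each of them called. PFKFB4 was 2.92-fold higher in pXEN cells than in pESCs (adjusted p = 0.00192). PFKFB4 also lies on chromosome 13. PFKFB2 was called higher in pXEN cells than in pESCs as well (log2 1.01 ± 0.36, adjusted p = 0.0471), and higher in pESCs than in nESCs (log2 1.27, adjusted p = 0.0455), but these calls were lost with 6 and 5 of the 7 lines left out, with log2 values in those fits of 0.78 to 1.02 and of 1.08 to 1.49. The largest share of the sum was PFKFB2 in pXEN cells, at 44.0% ± 10.5, PFKFB4 in nESCs, at 41.9% ± 9.03, and PFKFB3 in pESCs, at 60.9% ± 4.54. With 31.9% PFKFB2 and 38.1% PFKFB3, pXEN line 3 differed in this order from lines 1 and 2, and nESC lines 1 and 2 had 48.2% and 35.5% PFKFB4.

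**Figure D2:**
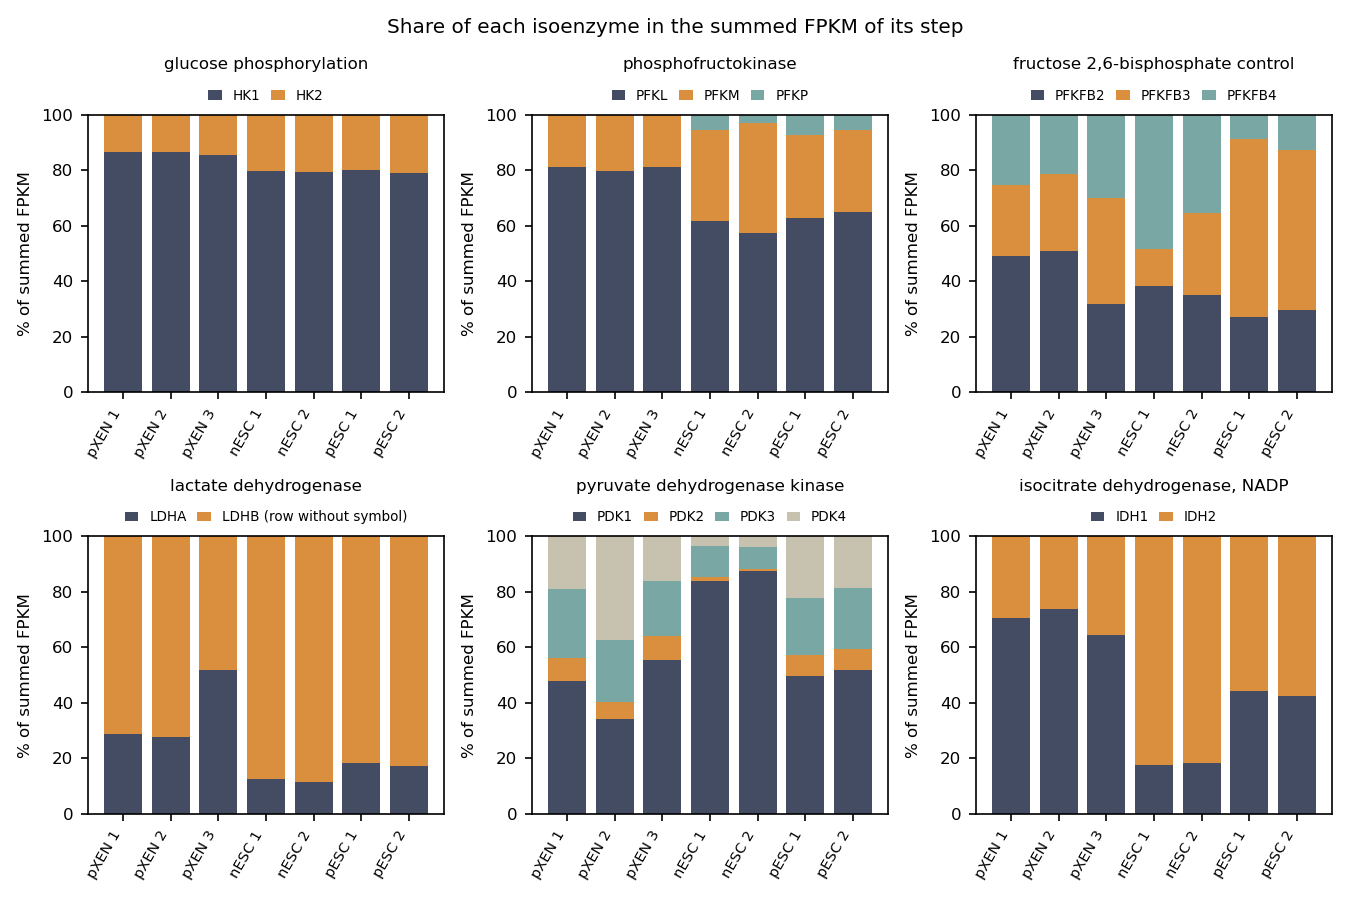
Share of each isoenzyme (y axis, percent of the summed FPKM of the genes shown for that step) in each library (x axis). PFKP is close to absent in the 3 pXEN lines, PDK1 fills 83.8% and 87.3% of the kinase bars of the nESC lines, and IDH1 fills 64.3% to 73.7% of the pXEN bars.

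In the middle of glycolysis, ALDOC, the brain type of aldolase, was higher in pXEN cells. It had 21.6, 28.5 and 32.6 FPKM in the pXEN lines, 4.30 and 4.97 FPKM in the nESC lines and 6.75 and 7.06 FPKM in the pESC lines. That is 5.91-fold higher than in nESCs (log2 2.56 ± 0.22, adjusted p = 3.97e-05) and 4.01-fold higher than in pESCs (adjusted p = 0.000163). ALDOA, the main aldolase of most tissues, was not analysed here, so no aldolase share was computed. GPI, which isomerises glucose 6-phosphate, and PGK1, which makes ATP further down, were not called in any comparison, at 123 to 198 and 81.0 to 152 FPKM. PGK1 was called lower in pXEN cells than in nESCs under upper-quartile scaling (log2 −0.54, adjusted p = 0.0486) and with the replicate block (log2 −0.58, adjusted p = 0.0324). Without pXEN line 2, GPI was called higher in pXEN cells against both ESC types (log2 0.46, adjusted p = 0.0179, and log2 0.45, adjusted p = 0.0212), and without pXEN line 3, PGK1 was called lower against both (log2 −0.57, adjusted p = 0.0264, and log2 −0.49, adjusted p = 0.0498). GAPDH was between 1364 and 1791 FPKM in all libraries and 1.22-fold lower in pXEN cells than in nESCs (log2 −0.29 ± 0.09, adjusted p = 0.0311). This call was lost with 6 of the 7 lines left out, with adjusted p up to 0.122. GAPDH was also lower in pESCs than in nESCs (log2 −0.34, adjusted p = 0.0389), again lost with 6 lines left out, at adjusted p up to 0.204. Both GAPDH and PGK1 overlap another gene, PIANP on the same strand and TAF9B on the other, and whether reads were counted by strand was not given in the sources used here.

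Phosphoglycerate mutase came almost wholly from PGAM1, read here from a row that carries no symbol. The PGAM1 row had 605, 661 and 753 FPKM in the pXEN lines, 728 and 718 FPKM in the nESC lines and 995 and 1011 FPKM in the pESC lines. It was 1.48-fold lower in pXEN cells than in pESCs (adjusted p = 0.00366) and higher in pESCs than in nESCs (log2 0.46, adjusted p = 0.0230). PGAM2, the muscle type, stayed at or below 0.888% of the summed FPKM in every library, with 0.377, 0.538 and 1.12 FPKM in the pXEN lines, 6.52 and 3.81 FPKM in the nESC lines and 2.65 and 1.10 FPKM in the pESC lines. Its pXEN values, from 3 to 10 counts, were below those of nESCs (log2 −2.90 ± 0.60, adjusted p = 0.00407) and overlapped those of pESCs.

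Enolase set the pESCs apart. ENO1, the enolase of most cells, had 189, 271 and 339.9 FPKM in the pXEN lines, 472 and 458 FPKM in the nESC lines and 891 and 869 FPKM in the pESC lines, so the cell types were ordered without overlap. It was 1.75-fold lower in pXEN cells than in nESCs (adjusted p = 0.0114, and 0.0600 or 0.0503 with nESC line 1 or 2 left out) and 3.28-fold lower than in pESCs (adjusted p = 0.000351). The rise from nESCs to pESCs (log2 0.91 ± 0.23, adjusted p = 0.0198) was not called with any 1 of the 4 ESC lines left out, at adjusted p of 0.0835 to 0.0986. ENO2, the neuronal enolase, on chromosome 5 from 66237496 to 66246344, had 0.299, 0.598 and 0.179 FPKM in the pXEN lines and 0.324 and 0.504 FPKM in the nESC lines, but 41.4 and 33.3 FPKM in the pESC lines. It was 101-fold lower in pXEN cells (log2 −6.65 ± 0.34, adjusted p = 6.17e-06) and 88.4-fold lower in nESCs (log2 difference 6.47 ± 0.39, adjusted p = 2.97e-05) than in pESCs. The log2 value of ENO2 against pESCs was −7.27 without pXEN line 2.

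ENO3, the muscle enolase, had 11.0, 13.1 and 13.6 FPKM in the pXEN lines, 7.20 and 6.94 FPKM in the nESC lines and 6.04 and 4.06 FPKM in the pESC lines. It was higher in pXEN cells than in nESCs (log2 0.82 ± 0.22, adjusted p = 0.0151, and 0.0730 or 0.0774 with nESC line 1 or 2 left out) and than in pESCs (log2 1.32, adjusted p = 0.00218). ENO1 still made up 94.4% to 98.4% of the summed enolase FPKM. ENO3 was the main minor form in pXEN cells, at 4.64% ± 0.815, and ENO2 in pESCs, at 4.04% ± 0.521.

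Pyruvate kinase and lactate dehydrogenase close the pathway. PKM, the pyruvate kinase of most cells, had 623, 764 and 661 FPKM in the pXEN lines, 600.2 and 626 FPKM in the nESC lines and 791 and 811 FPKM in the pESC lines, and was called in no comparison. Without pXEN line 2 it was called lower in pXEN cells than in pESCs (log2 −0.31, adjusted p = 0.00453) and higher in pESCs than in nESCs (log2 0.37, adjusted p = 0.00264). The first of these calls was also made under upper-quartile scaling (adjusted p = 0.0401), and the second with at least 10 counts in every library (adjusted p = 0.0369), in DESeq2 (adjusted p = 0.0176) and in the fit of the ESC types alone (adjusted p = 0.00479). PKM made up at least 99.8% of the summed pyruvate kinase FPKM in every library. PKLR, the liver and red cell type, was seen almost only in pXEN cells, with 0.907, 1.19 and 1.25 FPKM, which are 15 counts or more per library. The nESC lines had 0.0982 and 0 FPKM, or 2 counts in all, and the pESC lines none. Taking 3 counts per library as the floor, the PKLR level in pXEN cells was at least 8.18-fold higher than in pESCs (adjusted p = 0.00254), and the ratio of its scaled counts to those of nESCs was 22.4 (95% interval 5.93 to 189, for counting error only, adjusted p = 0.00556).

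LDHA, which favours the making of lactate, had 138, 186 and 361 FPKM in the pXEN lines, 130.2 and 117 FPKM in the nESC lines and 162 and 169 FPKM in the pESC lines. All 3 pXEN libraries lay above both nESC libraries, but the spread among the pXEN lines was wide and the difference missed the threshold (log2 0.88 ± 0.35, adjusted p = 0.0654). Without pXEN line 1 or line 2 the call was made (log2 1.14, adjusted p = 0.0137, and log2 1.01, adjusted p = 0.0331), and without line 3 the difference was log2 0.39 (adjusted p = 0.0783). With no filter on low counts it was called with every line (adjusted p = 0.0443). Between the ESC types, LDHA was called higher in pESCs only in the fit of these 2 groups alone (log2 0.41, adjusted p = 0.00759). LDHB, which favours the use of lactate, is represented by a row at 0 counts on chromosome 4 from 120878292 to 120879280. A row without a symbol on chromosome 5 from 55086948 to 55108253 is described as LDHB and had 344, 488 and 337 FPKM in the pXEN lines, 905 and 899 FPKM in the nESC lines and 731 and 809 FPKM in the pESC lines.

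By this row, LDHB was 2.32-fold lower in pXEN cells than in nESCs (adjusted p = 0.000538) and 1.96-fold lower than in pESCs (adjusted p = 0.00209). Another row, on chromosome 2, with the same description gave the same calls, and the rows may share reads. With the chromosome 5 row as LDHB, the LDHA share of lactate dehydrogenase FPKM was 28.7%, 27.6% and 51.7% in pXEN lines 1, 2 and 3, 12.6% and 11.5% in the nESC lines and 18.2% and 17.3% in the pESC lines. The share was thus highest in the pXEN lines, and that of line 3 was far from the other two.

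The pyruvate dehydrogenase complex, the gate from pyruvate to the TCA cycle, was lower in pXEN cells in some of its subunits. PDHA1, the catalytic alpha subunit, had 35.0, 40.9 and 35.7 FPKM in the pXEN lines, 78.1 and 75.5 FPKM in the nESC lines and 76.0 and 75.0 FPKM in the pESC lines. DLAT, the core acetyltransferase, had 23.3, 23.2 and 23.3 FPKM, 45.6 and 45.4 FPKM, and 28.4 and 31.4 FPKM in the same order. PDHA1 was lower in pXEN cells by a similar factor against either ESC type, 2.07-fold (adjusted p = 8.33e-05) and 2.02-fold (adjusted p = 0.000147). DLAT was 1.96-fold lower than in nESCs (adjusted p = 6.99e-05), while its difference from pESCs was smaller (log2 −0.35 ± 0.09, adjusted p = 0.0143, and 0.139 without pESC line 2). Primed ESCs were themselves lower in DLAT than nESCs (log2 −0.62 ± 0.10, adjusted p = 0.00308).

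PDHB, the beta subunit that pairs with PDHA1, had 68.1, 56.6 and 59.2 FPKM in the pXEN lines, 61.9 and 57.1 FPKM in the nESC lines and 56.2 and 54.6 FPKM in the pESC lines, and was called in no comparison. PDHB lies on chromosome 13. DLD, the dehydrogenase shared with other complexes, had 51.8, 53.1 and 50.5 FPKM in the pXEN lines, 61.8 and 55.9 FPKM in the nESC lines and 63.01 and 72.0 FPKM in the pESC lines. Against nESCs DLD was called lower in pXEN cells only under upper-quartile scaling (log2 −0.36, adjusted p = 0.0137). It was lower than in pESCs (log2 −0.37 ± 0.10, adjusted p = 0.0180), a call that was lost without pXEN line 1, pXEN line 3 or pESC line 2, with adjusted p of 0.0526, 0.0516 and 0.167.

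The pyruvate dehydrogenase kinases switch this complex off, and nESCs differed from both other cell types in which of them they held. PDK1 had 18.3, 18.3 and 24.2 FPKM in the pXEN lines, 47.4 and 54.6 FPKM in the nESC lines and 27.8 and 29.8 FPKM in the pESC lines. PDK2 had 3.18, 3.32 and 3.74 FPKM, 0.959 and 0.653 FPKM, and 4.18 and 4.45 FPKM in the same order. PDK3 had 9.46, 11.99 and 8.68 FPKM in the pXEN lines, 6.22 and 4.81 FPKM in the nESC lines and 11.5 and 12.6 FPKM in the pESC lines. PDK1 was thus highest, and PDK2 and PDK3 lowest, in both nESC lines, with no overlap.

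PDK4, the kinase that rises in fasting tissues, had 7.28, 20.1 and 7.01 FPKM in the pXEN lines, 1.99 and 2.45 FPKM in the nESC lines and 12.4 and 10.6 FPKM in the pESC lines. Against nESCs, pXEN cells were 2.52-fold lower in PDK1 (adjusted p = 0.000213), 4.20-fold higher in PDK2 (adjusted p = 0.000381), 1.82-fold higher in PDK3 (adjusted p = 0.00659, and 0.0584 without nESC line 2) and 5.15-fold higher in PDK4 (adjusted p = 0.00454). The PDK4 value rests in part on pXEN line 2, without which it was log2 1.68 in place of 2.36 (adjusted p = 4.27e-05). Against pESCs, PDK4 did not differ with all lines in the fit (log2 0.0067 ± 0.44), and without pXEN line 2 it was called lower (log2 −0.68, adjusted p = 0.00475). PDK1 was called lower than in pESCs (log2 −0.50 ± 0.16, adjusted p = 0.0311), but not with pXEN line 1 or either pESC line left out.

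PDK1 made up 85.6% ± 2.51 of the summed kinase FPKM in nESCs, 45.8% ± 10.8 in pXEN cells and 50.8% ± 1.48 in pESCs. The summed kinase level changed less, at 59.5 ± 4.21, 45.2 ± 7.87 and 56.7 ± 1.13 FPKM. In primed against nESCs, PDK2, PDK3 and PDK4 were called higher (log2 2.40, 1.12 and 2.36) and PDK1 lower (log2 −0.84 ± 0.17, adjusted p = 0.00804). The calls of PDK1 and PDK4 between the ESC types were each lost with 3 of the 7 lines left out, at adjusted p up to 0.0698 and 0.0868.

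Gluconeogenesis, the making of glucose from pyruvate and lactate, uses pyruvate carboxylase, phosphoenolpyruvate carboxykinase and fructose bisphosphatase to go around the one-way steps of glycolysis. PCK2, the mitochondrial carboxykinase, on chromosome 7 from 80458471 to 80468943, had 50.04, 41.3 and 42.3 FPKM in the pXEN lines, 15.2 and 15.5 FPKM in the nESC lines and 155 and 154 FPKM in the pESC lines. The 3 cell types did not overlap, and each difference was many times its standard error: pXEN cells were 2.90-fold above nESCs (log2 1.53 ± 0.12, adjusted p = 2.33e-05) and 3.46-fold below pESCs (log2 −1.79 ± 0.11, adjusted p = 1.24e-05). PCK1, the cytosolic form known from liver and yolk sac, had 0.868, 1.51 and 0.961 FPKM in the pXEN lines, which are 34 to 69 counts, and 0 counts in all 4 ESC lines. With 3 counts per library as the floor, the pXEN level was at least 17.5-fold higher than in nESCs and at least 19.4-fold higher than in pESCs (adjusted p = 0.000715 and 0.000826). PCK1 was 2.48% ± 0.936 of the summed PCK1 and PCK2 FPKM in pXEN cells.

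FBP1, fructose bisphosphatase, on chromosome 10 from 31712488 to 31830025, was high in pESCs and near the floor elsewhere. The pESC lines had 24.5 and 26.9 FPKM, the nESC lines 0.432 and 0.224 FPKM and the pXEN lines 0, 0.364 and 0 FPKM. The 8 counts of pXEN line 2 were the only ones in pXEN cells. FBP1 was 190.3-fold lower in pXEN cells than in pESCs (log2 −7.57 ± 0.67, adjusted p = 7.44e-05), and with lines 1 and 3 alone at least 169-fold lower. Against nESCs it was not called (adjusted p = 0.296), but was called lower without pXEN line 2 (adjusted p = 0.00269). It was 76.0-fold higher in pESCs than in nESCs (log2 6.25 ± 0.70, adjusted p = 0.000512). Pyruvate carboxylase, read from a row without a symbol, had 67.4, 77.0 and 53.4 FPKM in the pXEN lines, 61.1 and 53.7 FPKM in the nESC lines and 32.8 and 34.7 FPKM in the pESC lines. This PC row was 1.97-fold higher in pXEN cells than in pESCs (adjusted p = 0.00188), 1.72-fold lower in pESCs than in nESCs (adjusted p = 0.0122), and not called between pXEN cells and nESCs. G6PC, the phosphatase that frees glucose, was not analysed here.

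**Figure D3:**
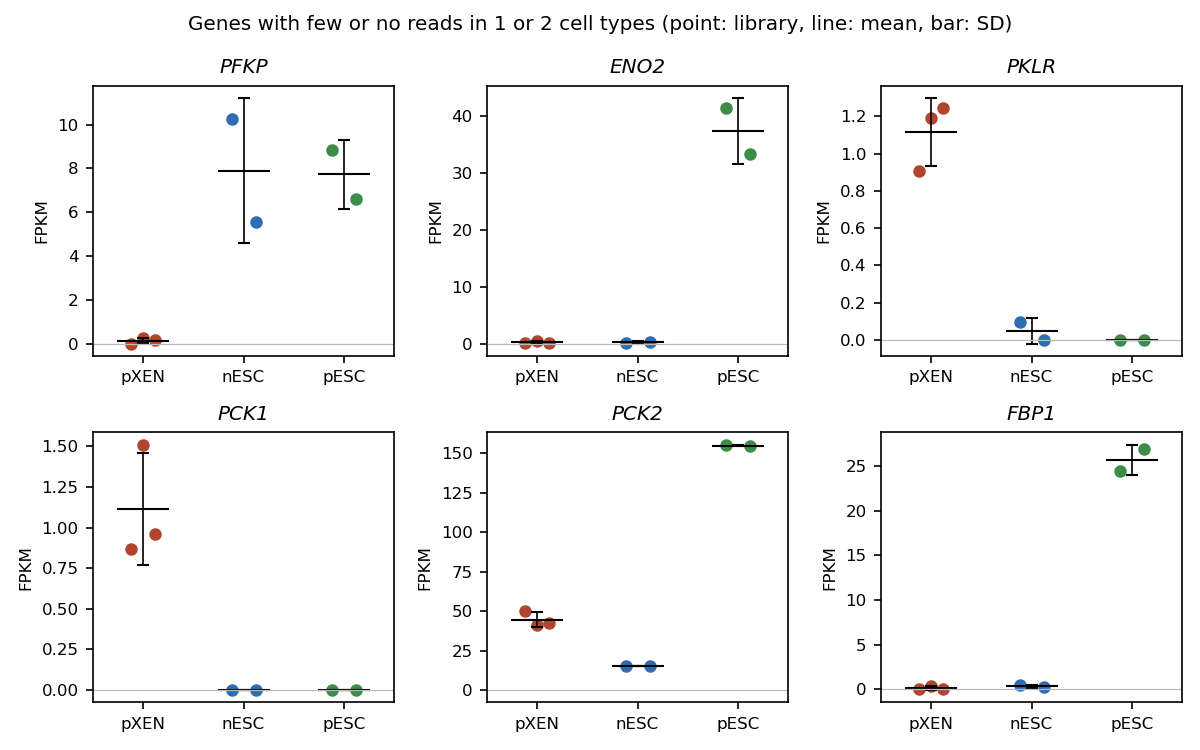
FPKM (y axis, linear and separate for each gene) of 6 genes in each library, with 3 pXEN, 2 nESC and 2 pESC libraries. Points are libraries, lines are means and bars are SDs. PFKP is near 0 in pXEN cells only, ENO2 and FBP1 are high in pESCs only, at 24.5 to 41.4 FPKM, PKLR and PCK1 reach about 1 FPKM in pXEN cells and PCK2 steps from 15.3 to 44.6 to 155 FPKM.

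The TCA cycle oxidises acetyl groups in the mitochondrial matrix, and 12 genes grouped with it here were tested. Among them, IDH1 and ACO1 encode cytosolic enzymes, and these were the 2 genes called higher in pXEN cells in the counts that follow. Against nESCs, 2 were higher and 5 lower in pXEN cells, with a median log2 fold change of −0.52, and against pESCs 2 were higher and 5 lower, with a median of −0.16. Of all genes, 26.2% and 24.4% were called lower in these comparisons. Without pXEN line 2, 9 were lower than in nESCs and 6 lower than in pESCs, beside 29.8% and 28.9% of all genes, and the number higher was 2 in each. IDH1, IDH2 and IDH3A stand for different isocitrate dehydrogenases: IDH1 makes NADPH in the cytosol, IDH2 makes NADPH in mitochondria and IDH3A belongs to the NAD-dependent enzyme of the cycle itself. IDH1, on chromosome 15 from 122861672 to 122879852, had 235, 347 and 193 FPKM in the pXEN lines, 37.4 and 35.7 FPKM in the nESC lines and 78.7 and 78.9 FPKM in the pESC lines. IDH2 had 99.0, 124 and 107 FPKM, 177 and 159 FPKM, and 98.8 and 107 FPKM in the same order. IDH3A had 12.4, 11.995 and 13.1 FPKM in the pXEN lines, 23.2 and 22.3 FPKM in the nESC lines and 16.8 and 18.4 FPKM in the pESC lines.

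These isoenzymes moved in opposite directions between pXEN cells and nESCs. IDH1 was 7.06-fold higher in pXEN cells than in nESCs (log2 2.82 ± 0.25, adjusted p = 5.14e-05) and 3.30-fold higher than in pESCs (log2 1.72 ± 0.24, adjusted p = 0.000658). Without pXEN line 2, which was highest, the log2 values were 2.54 and 1.45 and both calls stood. IDH2 was 1.53-fold lower than in nESCs (adjusted p = 0.00343) and overlapped pESCs, and IDH3A was 1.83-fold lower than in nESCs (adjusted p = 0.000255) and 1.40-fold lower than in pESCs (adjusted p = 0.00615, and 0.0674 without pESC line 2). Of the summed FPKM of both NADP enzymes, IDH1 took 69.5% ± 4.75 in pXEN cells, 17.9% ± 0.631 in nESCs and 43.4% ± 1.35 in pESCs. The pESCs lay between the other cell types in this share, with IDH1 higher (log2 1.09, adjusted p = 0.0124) and IDH2 lower (log2 −0.72, adjusted p = 0.00563) than in nESCs. Leaving out any 1 of the 4 ESC lines took the IDH1 call away, at adjusted p of 0.0614 to 0.0725, and leaving out pESC line 1 that of IDH2, at 0.0602.

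ACO1, the cytosolic aconitase that doubles as an iron sensor, had 100.2, 94.6 and 89.0 FPKM in the pXEN lines, 77.3 and 73.9 FPKM in the nESC lines and 53.5 and 57.3 FPKM in the pESC lines. It was the other gene of this group that was higher in pXEN cells, with log2 0.32 ± 0.10 against nESCs (adjusted p = 0.0249) and 0.78 ± 0.10 against pESCs (adjusted p = 0.000454). The call against nESCs was lost with 5 of the 7 lines left out, at adjusted p up to 0.131, in the fit of these 2 groups alone (adjusted p = 0.0501) and under upper-quartile scaling (log2 0.15, adjusted p = 0.207). In pESCs ACO1 was lower than in nESCs (log2 −0.46, adjusted p = 0.0133), which was not called with any 1 ESC line left out, at adjusted p of 0.0502 to 0.117.

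Among the later enzymes of the cycle, SDHA, FH and MDH2 were lower in pXEN cells than in nESCs. SDHA, the flavoprotein of succinate dehydrogenase, had 45.0, 47.5 and 44.5 FPKM in the pXEN lines, 113 and 97.3 FPKM in the nESC lines and 60.5 and 61.3 FPKM in the pESC lines. SDHB, the iron-sulphur subunit of the same enzyme, had 74.2, 86.8 and 61.9 FPKM, 77.8 and 78.8 FPKM, and 76.6 and 82.3 FPKM in the same order. SDHA was 2.31-fold lower in pXEN cells than in nESCs (adjusted p = 3.78e-05) and 1.33-fold lower than in pESCs (adjusted p = 0.0123, and 0.0712 or 0.0826 with pESC line 1 or 2 left out), while SDHB was called in no comparison. Between the ESC types, SDHA was lower in pESCs (log2 −0.80 ± 0.11, adjusted p = 0.00149), and so was IDH3A (log2 −0.38, adjusted p = 0.0362, lost with 5 of the 7 lines left out, at adjusted p up to 0.234). FH lay just outside the threshold between the ESC types (log2 −0.50, adjusted p = 0.0529) and was called lower in pESCs in 4 of 6 settings that kept every line, in the fit of the ESC types alone and without pXEN line 2 or 3. FH, fumarase, had 84.5, 109 and 78.3 FPKM in the pXEN lines, 179 and 165 FPKM in the nESC lines and 119 and 128 FPKM in the pESC lines. It was 1.90-fold lower than in nESCs (adjusted p = 0.00117) and 1.35-fold lower than in pESCs (adjusted p = 0.0445, lost with 6 of the 7 lines left out, at adjusted p up to 0.207).

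MDH2, the malate dehydrogenase of mitochondria, had 86.7, 90.4 and 94.1 FPKM in the pXEN lines, 179 and 152 FPKM in the nESC lines and 129.6 and 154 FPKM in the pESC lines, and was 1.84-fold and 1.56-fold lower in pXEN cells (adjusted p = 0.000439 and 0.00275). Its cytosolic counterpart MDH1, read from a row without a symbol, had 224, 282 and 223 FPKM in the pXEN lines, 110.2 and 98.4 FPKM in the nESC lines and 93.5 and 113 FPKM in the pESC lines. The MDH1 row was 2.32-fold and 2.37-fold higher in pXEN cells (adjusted p = 0.000323 and 0.000373), and another row with the same description gave the same calls. MDH1 and MDH2, like IDH1 and IDH2, therefore changed in opposite directions against nESCs, with the cytosolic form higher in pXEN cells.

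SUCLA2 had 12.5, 14.9 and 12.4 FPKM in the pXEN lines, 19.0 and 15.1 FPKM in the nESC lines and 17.2 and 14.3 FPKM in the pESC lines. SUCLG1, the subunit it binds to form succinyl-CoA ligase, had 137, 190.0 and 126 FPKM, 165 and 163 FPKM, and 146 and 160.1 FPKM in the same order. Neither was called, although SUCLA2 was called lower than in nESCs under upper-quartile scaling (log2 −0.54, adjusted p = 0.0208), and without pXEN line 2 both were called lower than in nESCs (log2 −0.46, adjusted p = 0.0300, and log2 −0.32, adjusted p = 0.0110). OGDH, of the oxoglutarate dehydrogenase complex, was lower than in pESCs (log2 −0.47 ± 0.15, adjusted p = 0.0373), lost with 6 of the 7 lines left out, at adjusted p up to 0.145, and its difference from nESCs missed the threshold (log2 −0.42, adjusted p = 0.0502). It was called lower than in nESCs without pXEN line 2 (log2 −0.52, adjusted p = 0.00930) and in 4 of 6 settings that kept every line, at adjusted p of 0.00872 to 0.0471. The row of OGDH overlaps ZMIZ2 on the other strand and a row without a symbol on the same strand, from 55478372 to 55652225, that held 756 counts over all libraries.

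CS, citrate synthase, which starts the cycle, had 24.1, 52.7 and 23.1 FPKM in the pXEN lines, 57.3 and 48.4 FPKM in the nESC lines and 29.3 and 30.0 FPKM in the pESC lines. Line 2 was far above the other pXEN lines, and CS was called in no comparison. Without that line it was lower in pXEN cells than in nESCs (log2 −1.17 ± 0.12, adjusted p = 4.81e-05) and than in pESCs (log2 −0.32, adjusted p = 0.0481), and lower in pESCs than in nESCs (log2 −0.85, adjusted p = 0.000548). In the fit of the ESC types alone, CS was called lower in pESCs too (log2 −0.85, adjusted p = 0.00135). Another row described as CS had 25.6, 37.7 and 22.8 FPKM in the pXEN lines and was called lower than in nESCs with all lines in the fit (log2 −0.61, adjusted p = 0.0423). It overlaps ERBB3. A further row with this description, at 6.25 to 16.5 FPKM, was not called against nESCs (log2 −0.32, adjusted p = 0.517).

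**Figure D4:**
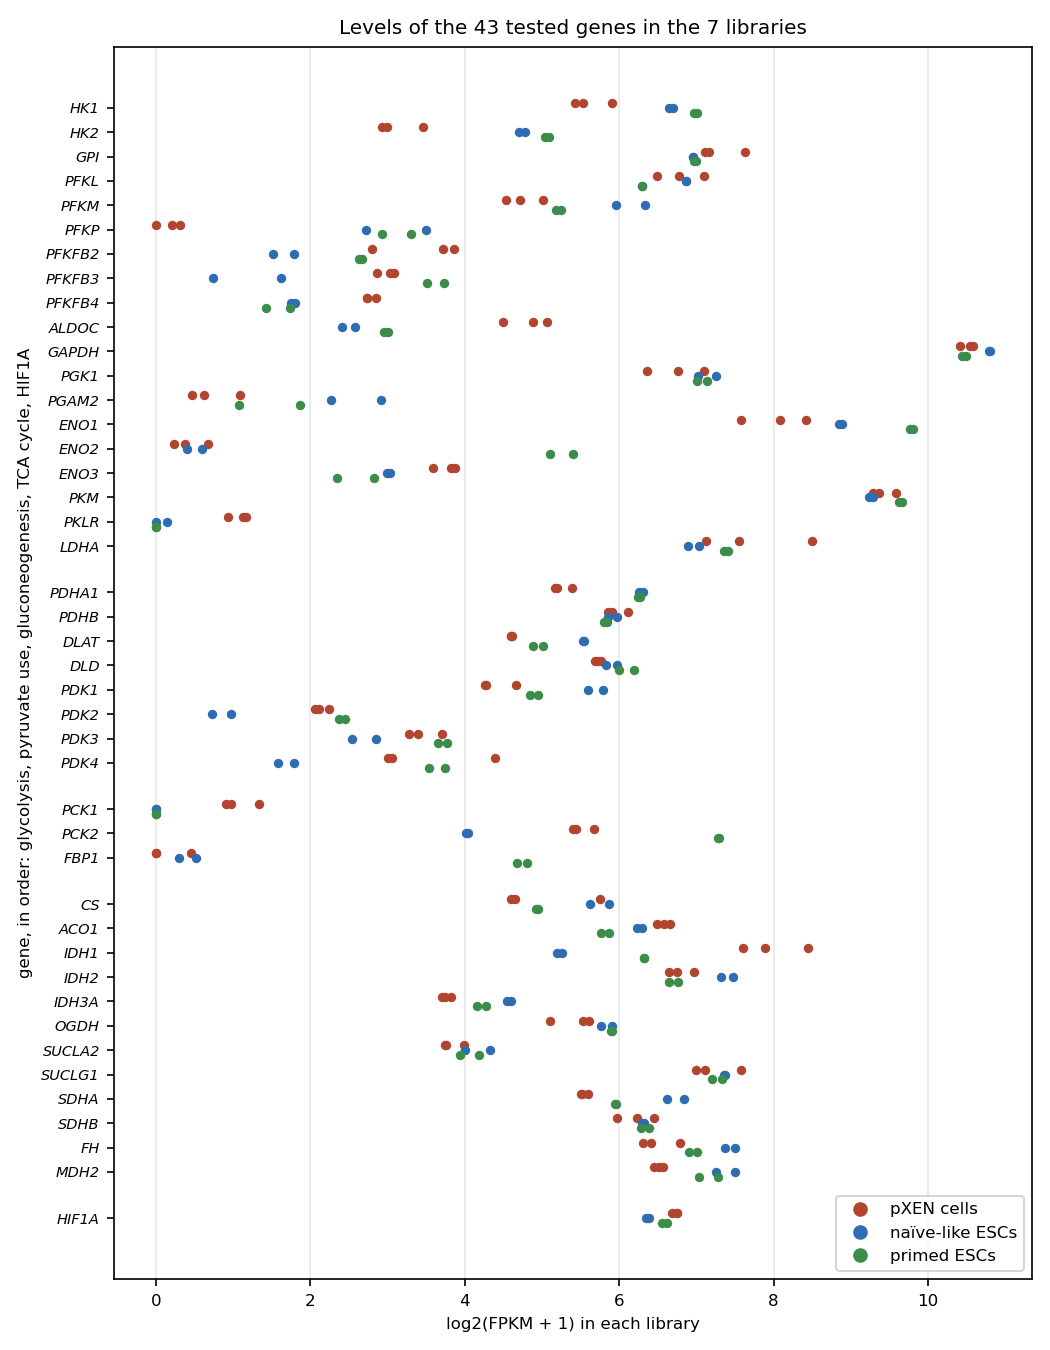
Level of each tested gene (y axis) as log2(FPKM + 1) (x axis, log scale) in each of the 7 libraries, coloured by cell type. GAPDH, PKM and ENO1 lie at the right, PKLR, PCK1, PFKP and FBP1 reach 0 in at least 1 library, and the pXEN points of LDHA, PDK4 and CS are spread widely.

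The pXEN lines differed among themselves in which branch of metabolism was highest, a pattern noticed after the values were seen. Of 16 glycolysis genes with enough reads, 11 were highest in line 3, which is 68.8% beside 30.0% of 14993 genes, and their median log2 ratio of line 3 to line 1 was 0.34 beside −0.01 for all genes. Of the 12 TCA cycle genes, 9 were highest in line 2, which is 75% beside 42.5% of all genes. The same held for 34 of 38 nuclear subunits of the respiratory chain, a list that shares no gene with the 50, with a median log2 ratio of line 2 to line 1 of 0.34 beside 0.03. Each line is 1 library, so these counts have no replicate and no test. The fibroblast marker level of line 2 was given above, and its part in the TCA cycle and respiratory chain values was not tested. Over the 39 members with enough reads, the highest pXEN line exceeded the lowest by a median of 1.37-fold, as it did over all genes.

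HIF1A, the oxygen-regulated factor that raises many glycolysis genes, was higher in pXEN cells than in nESCs by log2 0.36 ± 0.09 (adjusted p = 0.00971, and 0.0746 without nESC line 1). Under upper-quartile scaling the difference was log2 0.19 and missed the threshold (adjusted p = 0.0938). It had 102, 106 and 106 FPKM in the pXEN lines, 80.4 and 82.3 FPKM in the nESC lines and 92.9 and 97.1 FPKM in the pESC lines. Its activity is set mostly at the protein level, which was not measured here. Of 13 tested HIF targets outside glycolysis, 9 were higher and 1 lower in pXEN cells than in nESCs, with a median log2 fold change of 1.28, and 4 were higher and 2 lower than in pESCs, with a median of 0.64. Of all genes, 28.3% were called higher and 26.2% lower than in nESCs, and 23.9% higher and 24.4% lower than in pESCs. With pXEN line 2 left out, 7 were higher and 2 lower than in pESCs, beside 26.5% and 28.9% of all genes. VEGFA, P4HA1 and BNIP3 had the highest mean level over the 7 libraries, an order that did not hold within each ESC type. VEGFA, the vascular growth factor, had 97.5, 66.2 and 116 FPKM in the pXEN lines, 2.90 and 3.65 FPKM in the nESC lines and 18.4 and 19.3 FPKM in the pESC lines. P4HA1, a collagen prolyl hydroxylase, was called higher in pXEN cells against both ESC types (log2 2.77 and 2.43), and BNIP3, a mitophagy receptor, against nESCs (log2 0.98, adjusted p = 0.00780). The gene that was lower, named after its values were seen, was EGLN3, a HIF prolyl hydroxylase that is also in the list of HIF regulators (log2 −2.61, adjusted p = 2.45e-05).

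Of 7 tested genes of glucose and lactate transport, among them BSG, a partner protein of the lactate carriers, 6 passed the test as higher in pXEN cells than in nESCs, with a median log2 fold change of 1.32, where 28.3% of all genes were called higher. Against pESCs 3 were called higher, with a median of 0.29, where 23.9% of all genes were. With pXEN line 2 left out, 6 were higher and 1 lower than in nESCs, and 3 higher and 1 lower than in pESCs. Of all genes in that fit, 30.2% were higher and 29.8% lower than in nESCs, and 26.5% and 28.9% than in pESCs. SLC2A1, the widespread glucose transporter, had 326, 313 and 294 FPKM in the pXEN lines, 7.18 and 8.54 FPKM in the nESC lines and 73.0 and 90.0 FPKM in the pESC lines. SLC2A3, the high-affinity glucose transporter, had 758, 581 and 747 FPKM, 74.8 and 69.8 FPKM, and 247 and 273 FPKM in the same order. Both were called higher in pXEN cells against each ESC type, SLC2A1 by log2 5.30 ± 0.17 and 1.94 ± 0.14 and SLC2A3 by log2 3.26 ± 0.15 and 1.43 ± 0.14. SLC16A1, a lactate and pyruvate carrier, was called higher than in nESCs only (log2 0.82, adjusted p = 0.00448), and its difference from pESCs was log2 0.28 ± 0.17.

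In contrast, the 38 tested nuclear subunits of the respiratory chain, which takes up the electrons of the TCA cycle, included 25 that were lower in pXEN cells than in nESCs, with a median log2 fold change of −0.54. Against pESCs, 3 were higher and 3 lower, with a median of −0.13, and 16 were lower in pESCs than in nESCs. With pXEN line 2 left out, 31 were lower than in nESCs, 3 were higher and 16 lower than in pESCs, with a median of −0.25, and 29 were lower in pESCs than in nESCs. The share of all genes called lower rose in that fit as well, from 26.2% to 29.8%, from 24.4% to 28.9% and from 13.3% to 19.4% in the same order. ATP5B, the beta subunit of ATP synthase and the most abundant of the list, had 629.9, 692 and 597 FPKM in the pXEN lines, 969.6 and 906 FPKM in the nESC lines and 764 and 796 FPKM in the pESC lines (log2 −0.56, adjusted p = 0.00239 against nESCs). NDUFA4 was called lower than in nESCs (log2 −0.45, adjusted p = 0.0238), and ATP5A1 was not called (log2 −0.12 ± 0.13).

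Of 7 further TCA cycle genes, 3 were higher and 4 lower in pXEN cells than in nESCs, and 3 higher and 2 lower than in pESCs. The shares of all genes called were, as given above, 28.3% higher and 26.2% lower, and 23.9% higher and 24.4% lower. DLST, the core of the oxoglutarate dehydrogenase complex, had 238, 194 and 222 FPKM in the pXEN lines, 69.3 and 63.02 FPKM in the nESC lines and 48.0 and 50.4 FPKM in the pESC lines. It was higher in pXEN cells by log2 1.71 ± 0.12 (adjusted p = 1.48e-05) and 2.15 ± 0.12 (adjusted p = 9.51e-06), while OGDH of the same complex was not. SUCLG2 was also higher (log2 0.55 and 0.82). It lies on chromosome 13, where the median log2 fold change of 1129 tested genes was 0.46 against nESCs and 0.40 against pESCs. The part of this in the value of SUCLG2 was not tested. Among 5 genes of pyruvate entry into mitochondria, MPC2, part of the pyruvate carrier, was the 1 that was called against nESCs, with 68.3, 85.9 and 56.3 FPKM in the pXEN lines, 21.0 and 19.7 FPKM in the nESC lines and 20.7 and 24.3 FPKM in the pESC lines (log2 1.78 ± 0.20, adjusted p = 0.000154). PDHX and PDP1, the next most abundant of that list, were called in no comparison.

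**Figure D5:**
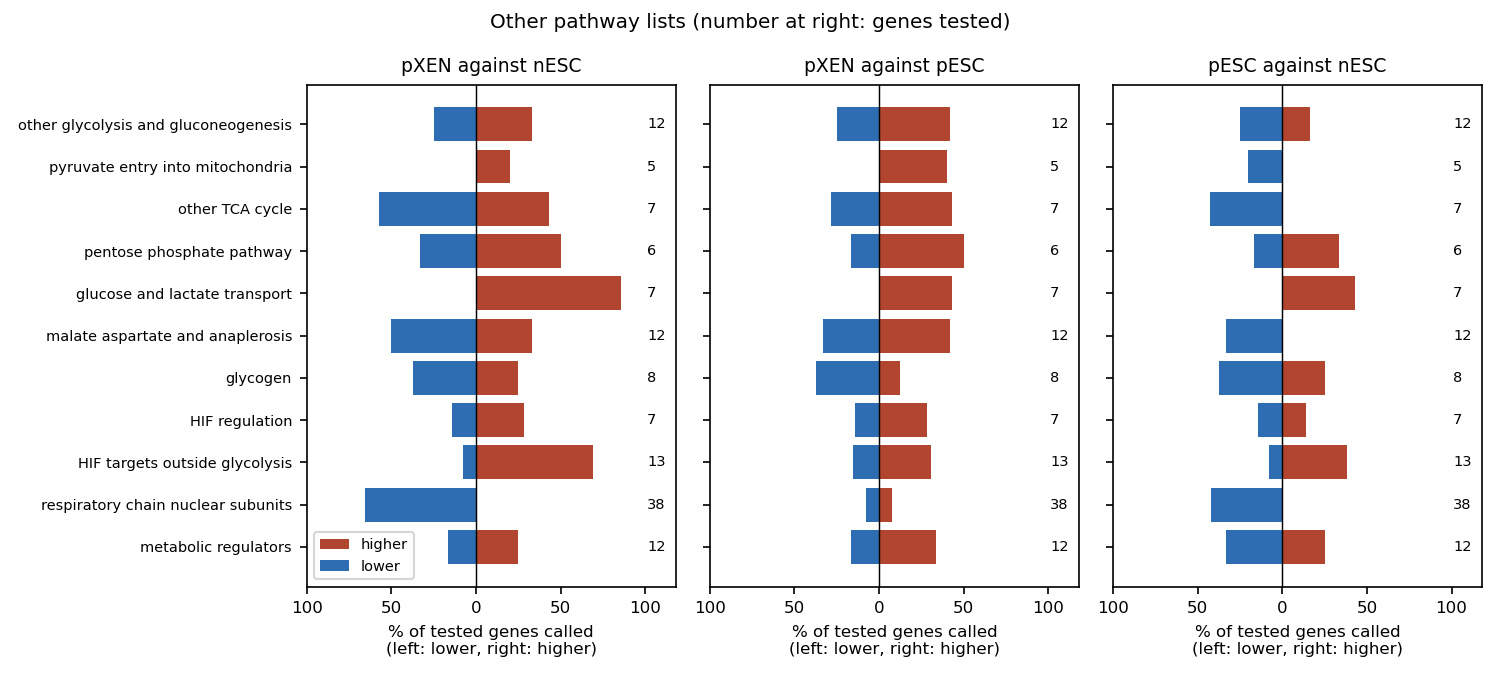
Percent of the tested genes of each further pathway list (y axis) called higher (right of 0) or lower (left of 0) at an edgeR adjusted p below 0.05, in 3 comparisons. The number at the right of each bar is how many genes were tested. Glucose and lactate transport reaches 6 of 7 higher, and respiratory chain subunits 25 of 38 lower, for pXEN cells against nESCs.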

How the data were processed

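RNA of 3 pXEN, 2 naïve-like ESC (nESC) and 2 primed ESC (pESC) lines was sequenced from rRNA-depleted directional libraries. The authors deposited raw counts of reads per gene and FPKM values, both with Ensembl identifiers. The submitters' processing notes name HISAT2 2.0.5, featureCounts 1.5.0-p3, edgeR 3.22.5 and Sscrofa10.2; the strand setting of the counting was not given in the sources used here. The deposited FPKM equal the counts divided by gene length and by 1 constant per library, and 0 columns of other samples were found. Groups follow the labels, and nothing says that a line was sequenced more than once, so each line was 1 replicate.

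Counts were tested with edgeR 4.0.16 (R 4.3.3): filterByExpr, TMM scaling, a quasi-likelihood fit of 1 model with 7 libraries, and Benjamini-Hochberg adjustment over 17447 genes. The biological coefficient of variation was 0.223. FPKM served for levels and isoenzyme shares, the latter without a test. Alternatives were upper-quartile scaling, no filter, at least 10 counts in every library, a replicate block, fits of 2 groups, DESeq2 1.42.0, limma 3.58.1 on log2(FPKM + 1), and each line left out. Tables were made with Python 3.11.15, pandas 2.3.3 and matplotlib.

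The genes, the pathway lists and the tests were chosen with earlier results of these data known, and no pattern here is independent support for those. All 50 genes were accounted for. Values in every library were given for tested genes of steps with several genes and for others past an absolute log2 fold change of 1 with an adjusted p below 0.05. Of each list, the 3 genes with the highest mean FPKM were named, save items that are not reported here. Rows without a symbol for LDHB, PGAM1, PC, MDH1, HK1, PGK1 and CS were added after the values were seen, from the tables' own descriptions and gene identifiers. Replicates are lines, and p-values measure the spread between lines.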

Additional observations from a re-analysis of the deposited data

How the results depend on the processing

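Of the fold changes of single genes under alternatives other than leaving out a line, 275 of 294 kept their direction and side of the threshold for pXEN cells against nESCs, 269 of 295 against pESCs and 258 of 283 between the ESC types. None of the called genes turned its direction under these alternatives. The number of genes called ranged from 24 to 36 against nESCs with a line left out (11 to 16 higher, 13 to 20 lower; 7287 of 18385 to 10359 of 17264 of all genes), from 16 to 28 against pESCs (7 to 9 higher, 9 to 19 lower; 30.2% to 55.4% of all genes) and from 9 to 22 between the ESC types (6 to 11 higher, 3 to 11 lower; 16.2% to 43.8% of all genes). The lowest of these counts come from fits with 1 line left in an ESC type, which is then assumed to vary like the other groups.

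Under upper-quartile scaling the median log2 fold change of all genes was −0.16 for pXEN cells against nESCs, −0.095 against pESCs and −0.061 between the ESC types. With this scaling PKM at −0.022 and PDHB at −0.13 against nESCs, and GAPDH at −0.032 against pESCs, changed sign without being called. The same held for GPI at −0.081, OGDH at −0.040 and SDHB at −0.081 between the ESC types. On log2(FPKM + 1), PFKP changed sign between the ESC types, to 0.011. PDK4 against pESCs had log2 values of −0.086 under upper-quartile scaling, −0.019 with at least 10 counts in every library, −0.023 in the fit of 2 groups, −0.0069 in DESeq2 and −0.16 on log2(FPKM + 1). The causes were not tested.

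The line numbers do not pair the samples: the correlation of the difference between lines 1 and 2 across 17447 genes was 0.0100 for pXEN cells with nESCs, 0.0501 with pESCs and −0.0106 between the ESC types, and only 2 numbers are shared. With the replicate block, 28 genes were called against nESCs, 20 against pESCs and 18 between the ESC types, where 47.4%, 40.1% and 28.9% of all genes were called. Under the block, which leaves out no library, the sign changed without a call for ENO2 (0.14) and SDHB (0.034) against nESCs and for LDHA (−0.026), SUCLG1 (0.094) and SDHB (0.028) against pESCs.

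With a line left out, the log2 fold change against nESCs ranged from −0.23 to 0.078 for PFKL, −0.80 to 0.16 for ENO2, −0.0395 to 0.091 for PDHB and −0.21 to 0.042 for SDHB. Against pESCs it ranged from −0.015 to 0.73 for LDHA, −0.68 to 0.27 for PDK4, −0.32 to 0.39 for CS, −0.21 to 0.11 for SUCLG1 and −0.22 to 0.034 for SDHB. Between the ESC types it ranged from −0.0035 to 0.030 for GPI, −0.42 to 0.45 for PFKP, −0.19 to 0.044 for PGK1, −0.019 to 0.12 for OGDH, −0.28 to 0.043 for SUCLA2 and −0.039 to 0.065 for SDHB. At this depth PFKP, PKLR, PCK1 and FBP1 rest on few counts in at least 1 cell type, and their folds there carry a large counting error. The counts of the further lists without pXEN line 2 were added after the values were seen.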

Other observations

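Beside the counts of the lists that follow stand those of all genes, of which 28.3% were called higher and 26.2% lower in pXEN cells than in nESCs, 54.5% in all, and 23.9% higher and 24.4% lower than in pESCs, 48.3% in all. With pXEN line 2 left out, 30.2% were called higher and 29.8% lower than in nESCs, and 26.5% higher and 28.9% lower than in pESCs. Of 6 tested genes of the pentose phosphate pathway, which makes NADPH and ribose, 3 were higher and 2 lower in pXEN cells than in nESCs, and 3 higher and 1 lower than in pESCs. TALDO1, transaldolase, had 355, 451 and 323 FPKM in the pXEN lines, 224 and 218 FPKM in the nESC lines and 217 and 218 FPKM in the pESC lines, and was called higher against both (log2 0.77 and 0.80). PGD, the dehydrogenase that yields NADPH, was called higher against both as well (log2 0.57 and 0.92), and TKT, transketolase, only against pESCs (log2 0.82, adjusted p = 0.0026). Of 12 genes of the malate-aspartate shuttle and of anaplerosis, 4 were higher and 6 lower than in nESCs, and 5 higher and 4 lower than in pESCs. ACLY, which makes cytosolic acetyl-CoA from citrate, had 145, 122 and 144 FPKM in the pXEN lines and 64.7 to 72.7 FPKM in the ESC lines (log2 0.99 and 1.00). SLC25A1, the citrate carrier, was lower than in nESCs (log2 −0.42) and higher than in pESCs (log2 0.38), and SLC25A13, an aspartate carrier, was higher than in both (log2 0.32 and 0.67). ME1, the cytosolic malic enzyme, was named after its values were seen, with 38.9, 52.5 and 31.5 FPKM in the pXEN lines and at most 3.87 FPKM in the ESC lines.

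Among the glycogen genes, GYG1 and PYGB were higher in nESCs than in both other cell types. GYG1, the glycogenin that primes glycogen, had 4.70, 6.76 and 5.51 FPKM in the pXEN lines, 105 and 87.2 FPKM in the nESC lines and 8.89 and 8.85 FPKM in the pESC lines (log2 −4.08 ± 0.17 for pXEN cells and −3.45 ± 0.19 for pESCs against nESCs, adjusted p = 1.64e-06 and 2.09e-05). PYGB, a glycogen phosphorylase, was likewise lower in both (log2 −1.82 and −1.66), and PYGL was lower in pXEN cells than in pESCs (log2 −1.56, adjusted p = 0.00497). Of the 8 tested genes of this list, 2 were higher and 3 lower in pXEN cells than in nESCs, 1 higher and 3 lower than in pESCs, and 2 higher and 3 lower in pESCs than in nESCs. Without pXEN line 2, 2 were higher and 6 lower in pXEN cells than in nESCs, with a median log2 fold change of −1.50, and 4 were higher and 3 lower in pESCs than in nESCs. Of all genes, 19% were called higher and 13.3% lower in pESCs than in nESCs, or 24.4% and 19.4% without pXEN line 2.

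Of 12 tested metabolic regulators, 3 were higher and 2 lower in pXEN cells than in nESCs and 4 higher and 2 lower than in pESCs. Without pXEN line 2, 6 were higher and 2 lower than in nESCs. MYCN, a growth-promoting transcription factor, had 80.4, 57.8 and 74.9 FPKM in the pXEN lines, 14.0 and 15.8 FPKM in the nESC lines and 70.9 and 80.9 FPKM in the pESC lines (log2 2.24, adjusted p = 2.05e-05, against nESCs). ESRRA, a regulator of mitochondrial genes, was lower than in nESCs (log2 −0.69, adjusted p = 0.000993), and TFAM, which packs mitochondrial DNA, was called in no comparison. Of 7 genes that regulate HIF, 2 were higher and 1 lower against each ESC type. ARNT, the partner of HIF1A, was higher than in pESCs (log2 1.20, adjusted p = 0.00116), and EGLN2 and EGLN1 were called in no comparison. Of 12 further genes of glycolysis and gluconeogenesis, 4 were higher and 3 lower than in nESCs and 5 higher and 3 lower than in pESCs. G6PC3, a widespread glucose 6-phosphatase, was lower in pXEN cells against both (log2 −1.01 and −1.09), PGP was higher than in pESCs (log2 0.60), and PGM1 was called in no comparison.

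Of 7 tested fibroblast markers, 4 were higher and 1 lower in pXEN cells than in nESCs, and 1 was higher and 2 lower than in pESCs, or 4 lower without pXEN line 2. The summed level of that list was 17.5, 251 and 20.6 FPKM in pXEN lines 1, 2 and 3, 30.5 and 35.9 FPKM in the nESC lines and 61.3 and 92.6 FPKM in the pESC lines, so pXEN lines 1 and 3 lay below both ESC types and line 2 above them. Of 4 tested trophectoderm markers, 1 was higher and 2 lower in pXEN cells than in nESCs, with a summed level of 25.8 to 29.3 FPKM in the pXEN lines, 10.5 and 14.8 FPKM in the nESC lines and 74.9 and 78.0 FPKM in the pESC lines.

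The median log2 fold changes of these lists, against nESCs and then against pESCs, were 0.39 and 0.49 for the pentose phosphate pathway, −0.51 and 0.07 for the malate-aspartate shuttle and anaplerosis, and −0.43 and −0.12 for glycogen genes. They were 0.36 and 0.03 for metabolic regulators, 0.19 and 0.20 for HIF regulators, 0.16 and 0.32 for the further glycolysis and gluconeogenesis genes, −0.43 and −0.04 for the further TCA cycle genes, and 0.18 and 0.18 for pyruvate entry into mitochondria.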
